A study of Apis mellifera with 5 samples.

Results

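TC17753, NP9553760 and BI507785 are the unigenes, that is, the assembled transcript sequences, which the study calls activators of the Ras GTPase. All 3 were taken by their identifiers, and they are 3 of the 20522 unigenes with a read in the series. RNA came from the hypopharyngeal glands (HGs), the paired head glands with which young worker honey bees secrete the proteins of royal jelly. The bees were workers of *Apis mellifera carnica* Pollmann, full sisters of 1 colony whose queen had been inseminated with the semen of a single drone, and they were aged 3, 6, 9, 12 or 16 days after emergence. Each of the 5 ages is represented by 1 library made from the pooled glands of 30 bees, and the groups differ in age alone as far as the labels say. A difference between libraries therefore has no replicate check, and each test compares libraries, not ages. By the study's own sample statistics the libraries also differ in RNA integrity and in the share of reads that match several positions.

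Ras proteins are small GTPases that signal while they hold GTP and fall silent once it is hydrolysed to GDP. An exchange factor loads GTP and switches Ras on, whereas a GTPase activator, or GAP, speeds up the hydrolysis and switches it off. In insects Ras carries signals from receptor tyrosine kinases to the MAP kinase cascade and to PI3 kinase, and in *Drosophila* it is known for its part in growth and in cell fate. The name of the 3 unigenes could not be checked in the files. The deposited annotation covers 7628 unigenes, those with a read on day 3 and an RPKM (the unique reads scaled to the unigene's length and to the library's total) below 10 there, and holds 0 of the 3. Which GTPase each of them acts on, whether the word stands for a GAP, and whether the 3 belong to 1 gene or to several are not given in the sources used here. Their sequences were not analysed here. The study names them in connection with day 12, so ratios with the day 12 library are given as a description, and the comparisons among the other 4 libraries do not use it.

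All 3 unigenes were read in all 5 libraries. Their level was highest on day 3, lower on days 6 and 9, lowest on day 12 and higher again on day 16. The RPKM on day 3 was 4.92 times that on day 12 in TC17753, 4.10 times in NP9553760 and 5.54 times in BI507785. The 3 together took 297, 215, 121, 51 and 175 unique reads from the youngest library to the oldest, or 175, 142, 100.2, 37.9 and 96.4 of every 1000000 unique reads of the library.

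TC17753, with 2312 bases the longest, had 143, 97, 57, 23 and 80 unique reads from the youngest library to the oldest. Its RPKM was 36.4 (95% exact Poisson interval 30.7 to 42.9), 27.6 (22.4 to 33.7), 20.4 (15.5 to 26.5), 7.40 (4.69 to 11.1) and 19.1 (15.1 to 23.7) in that order. The day 12 interval lay below those of the other 4 libraries, and those of days 9 and 16 nearly coincided. Only counting error is in these intervals: copies made by PCR are not separate molecules, and no second library shows how much pools of bees of 1 age differ.

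NP9553760, with 1755 bases, had 119, 96, 51, 23 and 69 unique reads. Its RPKM was 39.9 (33.1 to 47.8), 36.0 (29.2 to 44.0), 24.1 (17.9 to 31.6), 9.75 (6.18 to 14.6) and 21.7 (16.8 to 27.4) in the same order. The interval of day 6 overlapped those of days 3 and 9, that of day 9 overlapped that of day 16, and that of day 12 stood below the other 4.

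BI507785, with 527 bases the shortest and with 101 reads in all the least read, had 35, 22, 13, 5 and 26 unique reads. Its RPKM was 39.1 (27.2 to 54.4), 27.5 (17.2 to 41.6), 20.4 (10.9 to 34.9), 7.06 (2.29 to 16.5) and 27.2 (17.8 to 39.8). Here the day 12 interval overlapped that of day 9 and stayed below those of days 3, 6 and 16. The course is that of the longer pair, save that day 16 stood above day 9 and not below it, and it rests on few reads.

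**Figure D1:**
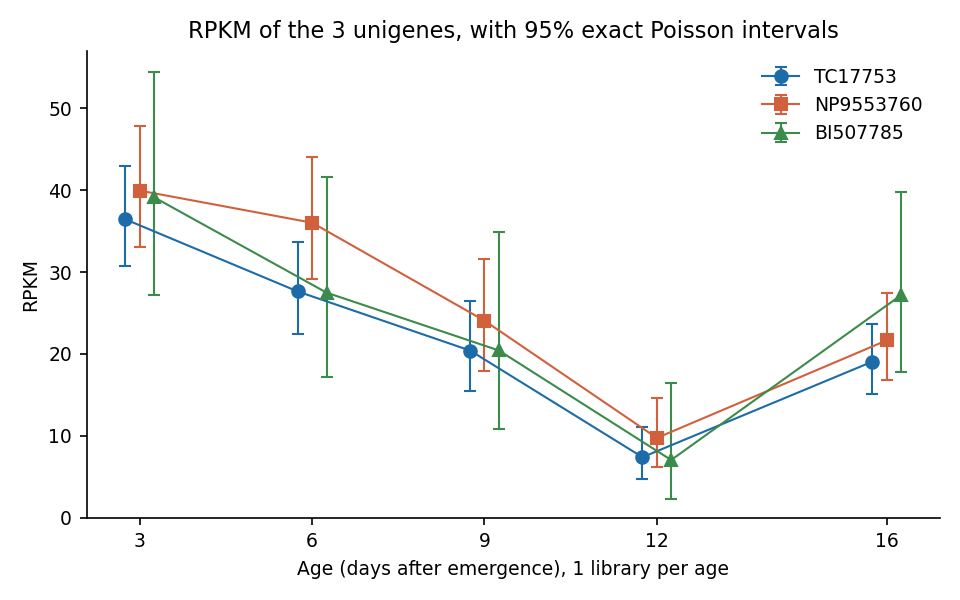
RPKM of TC17753 (circles), NP9553760 (squares) and BI507785 (triangles) against age in days, 1 library per age, with 95% exact Poisson intervals as bars; points of 1 age are set slightly apart. All 3 are highest on day 3 (36.4 to 39.9) and lowest on day 12 (7.06 to 9.75).

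Against the other unigenes of the same library the 3 also stood lower on day 12. On day 3 between 73.5% and 75.7% of the unigenes with a read had a lower RPKM than each of them. On day 12 the share was 40.9% for TC17753, 48.4% for NP9553760 and 39.5% for BI507785. On day 16 it was back at 65.0%, 68.4% and 74.1%. The 3 unigenes were thus in the upper part of each library's levels on day 3 and near or below its middle on day 12.

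The comparisons among days 3, 6, 9 and 16 gave no call for any of the 3. For those with day 3 the study's choice of the unigenes may have fixed this, so nothing is read from their counts. A unigene was called at a false discovery rate (FDR) of at most 0.001 in the Audic and Claverie test with an absolute log2 ratio of RPKM of at least 1. Day 6 against day 3 called 0 of 3 lower, with 0.289% of all tested unigenes called lower, and the log2 ratios were -0.40 (95% exact interval -0.79 to -0.02) for TC17753, -0.15 (-0.55 to 0.25) for NP9553760 and -0.51 (-1.35 to 0.30) for BI507785. Day 9 against day 3 called 0 of 3, with 6.31% of all unigenes called lower, at -0.84 (-1.30 to -0.38), -0.73 (-1.23 to -0.25) and -0.94 (-1.98 to 0.02). The intervals of the longer pair lay below 0 and that of BI507785 reached it. Under TMM scaling, which sets the library totals so that most unigenes do not change, all 3 reached 0, at -0.44 (-0.91 to 0.02), -0.33 (-0.84 to 0.15) and -0.54 (-1.58 to 0.42). With the most abundant unigenes left out of the library totals TC17753 stayed below 0, at -0.52 (-0.99 to -0.06). NP9553760 and BI507785 then reached 0, at -0.41 (-0.91 to 0.07) and -0.62 (-1.66 to 0.34). Scaling by the total of clean reads moved the ratios further down, to -1.32, -1.21 and -1.42. The separation thus depends on the scaling.

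Day 16 against day 3 came nearest to a call without day 12. TC17753 had a log2 ratio of -0.93 (-1.35 to -0.53) and NP9553760 of -0.88 (-1.33 to -0.44), both of which passed the FDR (1.8e-05 and 0.00026, exact Audic and Claverie test over all unigenes) and missed the ratio of 1. BI507785 had -0.53 (-1.32 to 0.25) and passed neither. The count, which the choice of the unigenes may have fixed, was 0 of 3 lower, beside 9.9% of all unigenes. Under TMM the ratios were -0.47 (-0.88 to -0.06) and -0.42 (-0.87 to 0.02), and neither passed the FDR (0.086 and 0.20, exact Audic and Claverie test). With the most abundant unigenes left out of the library totals the FDR was 0.0073 and 0.030, and with an assumed coefficient of variation of 0.2 it was 0.25 and 0.32, so that a lower level of the longer pair on day 16 than on day 3 depends on the scaling and on the error assumed.

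Days 6, 9 and 16 gave no call among themselves. Day 9 against day 6 called 0 of 3 (0.803% of all unigenes lower), with log2 ratios of -0.44, -0.58 and -0.43 for TC17753, NP9553760 and BI507785. Day 16 against day 6 called 0 of 3 (3.67% lower), with -0.54 (-0.98 to -0.09), -0.73 (-1.20 to -0.27) and -0.02 (-0.89 to 0.87). Day 16 against day 9 called 0 of 3 (1.45% lower and 1.54% higher), with -0.10 (-0.61 to 0.42), -0.15 (-0.70 to 0.40) and 0.41 (-0.60 to 1.5). In the order of its levels TC17753 ran from day 3 through days 6, 9 and 16 to day 12, and the intervals did not separate day 6 from day 9 or day 9 from day 16. NP9553760 had the same order, without separation of day 3 from day 6 or of day 9 from day 16. Under TMM the intervals of TC17753 for day 6 against day 3 (-0.64 to 0.13) and of NP9553760 for day 9 against day 6 (-0.85 to 0.17) held 0 too. BI507785 ran from day 3 through days 6, 16 and 9 to day 12, and no neighbours in that order were separated.

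The ratios with day 12 were the largest of each unigene. Day 12 against day 3 had log2 ratios of -2.30 (-3.0 to -1.66) in TC17753, -2.03 (-2.75 to -1.38) in NP9553760 and -2.47 (-4.18 to -1.11) in BI507785, and 3 of 3 were past the call limits, beside 12.5% of all unigenes called lower and 1.8% called higher. Day 12 against day 6 had -1.90 (-2.62 to -1.23), -1.89 (-2.61 to -1.22) and -1.96 (-3.72 to -0.53), and TC17753 and NP9553760 were past the limits, 2 of 3 beside 6.41%. BI507785 had a ratio of the same size there and, with 22 reads against 5, an FDR of 0.016 (exact Audic and Claverie test).

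Day 12 against day 9 had log2 ratios of -1.46 (-2.23 to -0.74), -1.30 (-2.08 to -0.57) and -1.53 (-3.37 to 0.05), with 1 of 3, TC17753, past the limits beside 1.44% of all unigenes. Day 16 against day 12 had 1.36 (0.68 to 2.10), 1.15 (0.45 to 1.90) and 1.94 (0.54 to 3.68), and again 1 of 3, TC17753, was past them, beside 2.33% called higher. BI507785 thus had the largest ratio of the 3 in all 4 comparisons with day 12 and the fewest past the limits, 1 of 4, against 2 of 4 in NP9553760 and 4 of 4 in TC17753. The 4 comparisons share the day 12 library, so they are not independent of each other, and nothing is read from these counts, since the unigenes were named for day 12.

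**Figure D2:**
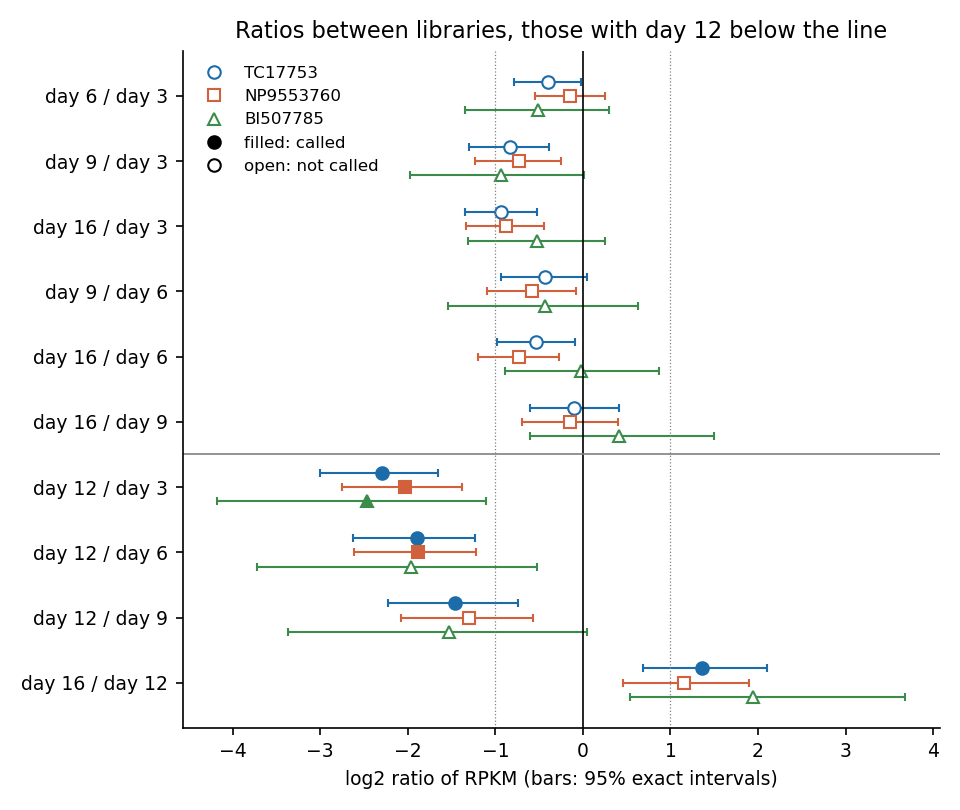
log2 ratios of RPKM for the 10 pairs of libraries, with 95% exact intervals as bars; filled symbols are past the call limits (FDR at most 0.001 and absolute log2 ratio at least 1, dotted lines), open ones are not. The 6 pairs above the grey line, without day 12, hold open symbols alone, and in the 4 pairs below it TC17753 is filled in 4, NP9553760 in 2 and BI507785 in 1.

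Most unigenes had a lower RPKM on day 12 than on day 3, with a median log2 ratio of -0.65 over the 15538 unigenes with at least 10 reads in the series. TC17753, NP9553760 and BI507785 lay 1.65, 1.39 and 1.82 below that median, in log2 units. A ratio as low as theirs or lower was held by 5.55%, 8.54% and 4.00% of these unigenes. The medians of days 6, 9 and 16 against day 3 were -0.20, -0.47 and -0.50. On those days the 3 stood between 0.46 below and 0.05 above the median, so that their distance from the bulk of the unigenes was large on day 12 alone among the 4 ages set against day 3. The study named them for day 12, so nothing is read from this contrast.

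**Figure D3:**
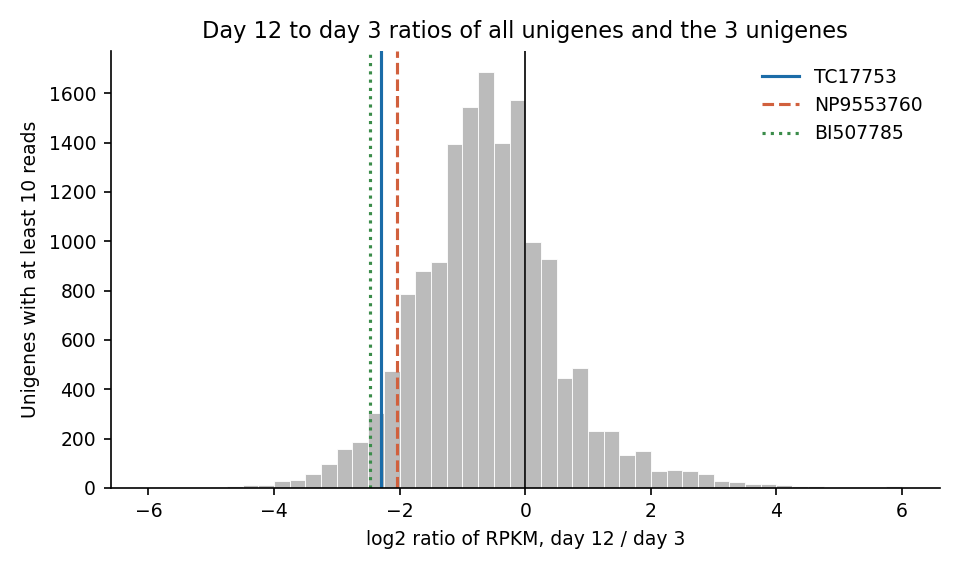
Number of unigenes with at least 10 reads in the series by their log2 ratio of RPKM on day 12 to day 3, in bins of 0.25, with the values of TC17753 (solid), NP9553760 (dashed) and BI507785 (dotted) as lines. The lines stand at -2.30, -2.03 and -2.47, in the lower tail of a distribution whose median is -0.65.

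The course over the 5 libraries, falling from day 3 through days 6 and 9 to day 12 and higher on day 16, was shared by 3 of 3. It was held by 19.9% of the unigenes with at least 10 reads and by 27.2% of those with at least 100, and 38.5% and 44.6% had their lowest value on day 12. With TMM the course was held by 9.43% and 13.0%, and 25.5% and 28.3% were lowest on day 12. The size of the fall and the return was less common. Of the 2411 unigenes called lower on day 12 against day 3, 36.4% were not called on days 6, 9 and 16 against day 3, as the 3 unigenes were not. In the 3 unigenes this may follow from their choice by the study. In 127 of the 2411 (5.27%), TC17753 among them, day 12 was called lower than days 6 and 9 and day 16 called higher than day 12.

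The 3 unigenes could not be told apart by level or by course. The ratio of RPKM between 2 of them in 1 library ran from 0.70 (TC17753 to BI507785 on day 16, interval 0.45 to 1.14) to 1.38 (NP9553760 to BI507785 on day 12, 0.51 to 4.65), and all 15 intervals held 1. The log2 ratio of 2 libraries was then compared between 2 unigenes in 30 tests. The differences ran from -0.79 to 0.44, and the smallest p was 0.14 before adjustment and 1 after it (Fisher's exact test, two-sided, Benjamini and Hochberg over the 30). These tests do not show that the 3 act alike, since the intervals of the differences reached from -2.68 to 2.29, the widest being those with BI507785. Those with day 12 also use the library for which the study named all 3, so like ratios there may follow from the choice.

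The reads of the 3 were spread along their length. A lone read covered 49 bases, so the 831 bases of TC17753 covered on day 12 need at least 17 distinct reads of its 23. The 718 covered bases of NP9553760 need at least 15 of 23, and the 204 of BI507785 need all 5. On day 3 the covered bases of TC17753 need at least 35 distinct reads of 143, those of NP9553760 31 of 119 and those of BI507785 10 of 35, and at that depth many reads overlap, so that these minima say little.

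The covered part of TC17753 was 73.9%, 66.2%, 55.5%, 35.9% and 71.2% of its length by age. Reads placed at random would cover 95.2%, 87.2%, 70.1%, 38.6% and 81.6%. NP9553760 was covered to 84.7%, 82.7%, 64.5%, 40.9% and 71.7%, and BI507785 to 88.8%, 69.1%, 68.7%, 38.7% and 94.7%. Coverage below the random value was usual in these libraries, where the median unigene with at least 10 reads had between 0.796 and 0.812 of it. TC17753 had 0.777 of it on day 3 and 0.932 on day 12, and NP9553760 0.879 and 0.863. TC17753 was covered further on day 16 with 80 reads than on day 6 with 97, and BI507785 further on day 16 with 26 reads than on day 3 with 35.

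**Figure D4:**
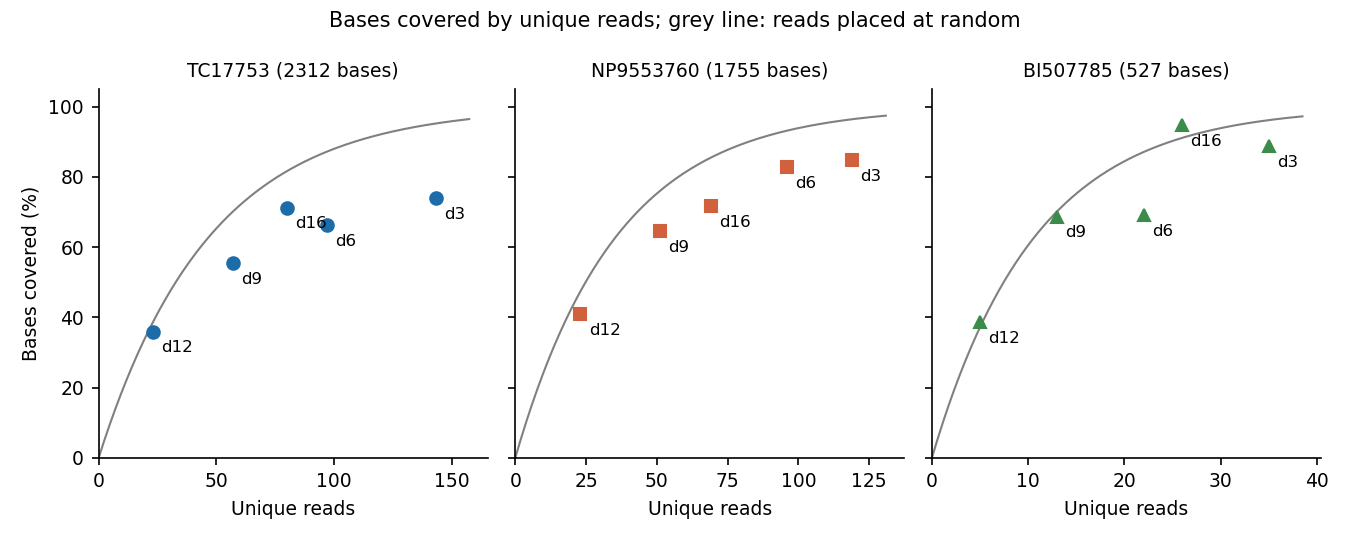
Covered bases in percent of the unigene's length against unique reads, 1 panel per unigene and 1 point per library (d3 to d16), with the value for reads of 49 bases placed at random as a grey line. The day 12 points lie near the line in all 3, and TC17753 falls furthest below it on day 3 (73.9% against 95.2%).

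Profiles were compared as the share of each library in the RPKM summed over the 5, and the distance of 2 profiles is the share that would have to move between libraries to make them the same (0 for the same profile, 1 for no overlap). TC17753 had 32.8%, 24.9%, 18.4%, 6.67% and 17.2% by age. The distance from TC17753 to NP9553760 was 0.032, and 0.389% of the 10546 unigenes with at least 50 reads were closer to TC17753. BI507785, whose day 16 share was 22.4%, lay 0.052 from TC17753 and 0.078 from NP9553760, with 2.63% of the unigenes closer to TC17753 and 10.2% closer to NP9553760. The study named the 3 together for day 12, so part of this likeness may follow from that choice, and nothing is read from these shares.

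Among the 1173 annotated and named unigenes with at least 50 reads, those nearest to TC17753 were NP9548705, matched to nephrin, a cell adhesion protein of the immunoglobulin superfamily (distance 0.019), NP9552063, matched to B9 domain-containing protein 2 (0.022), NP9550987, matched to dachsous, a large cadherin that in *Drosophila* acts in planar polarity and growth (0.025), NP9547661, matched to lozenge, a Runx transcription factor (0.030), and NP9551463, matched to the chromatin remodelling subunit NURF301 (0.039). Nephrin had 8.71, 6.21, 4.85, 2.28 and 4.49 RPKM in the order of age, the course of TC17753 at a lower level. The median distance of the candidates to TC17753 was 0.195.

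For NP9553760 the nearest were dachsous (0.025), NP9546138, matched to an acetylcholine receptor subunit (0.025), NP9552063 (0.032), NURF301 (0.034) and NP9546794, an uncharacterised UPF0493 protein (0.037). Dachsous had 5.35, 4.55, 2.86, 1.1 and 2.93 RPKM. For BI507785 they were TC12386, a cys-loop ligand-gated ion channel subunit (0.014), NP9551631, matched to dual oxidase, which makes hydrogen peroxide (0.024), NP9553115, an EF-hand protein (0.027), NP9546794 (0.043) and lozenge (0.046). TC12386 had 7.47, 5.01, 4.20, 1.42 and 5.24 RPKM, on 20, 12, 8, 3 and 15 reads. Every candidate had less than 10 RPKM on day 3, where the 3 unigenes had 36.4 or more, because the annotation stops there. Likeness over 5 libraries says nothing of shared control.

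**Figure D5:**
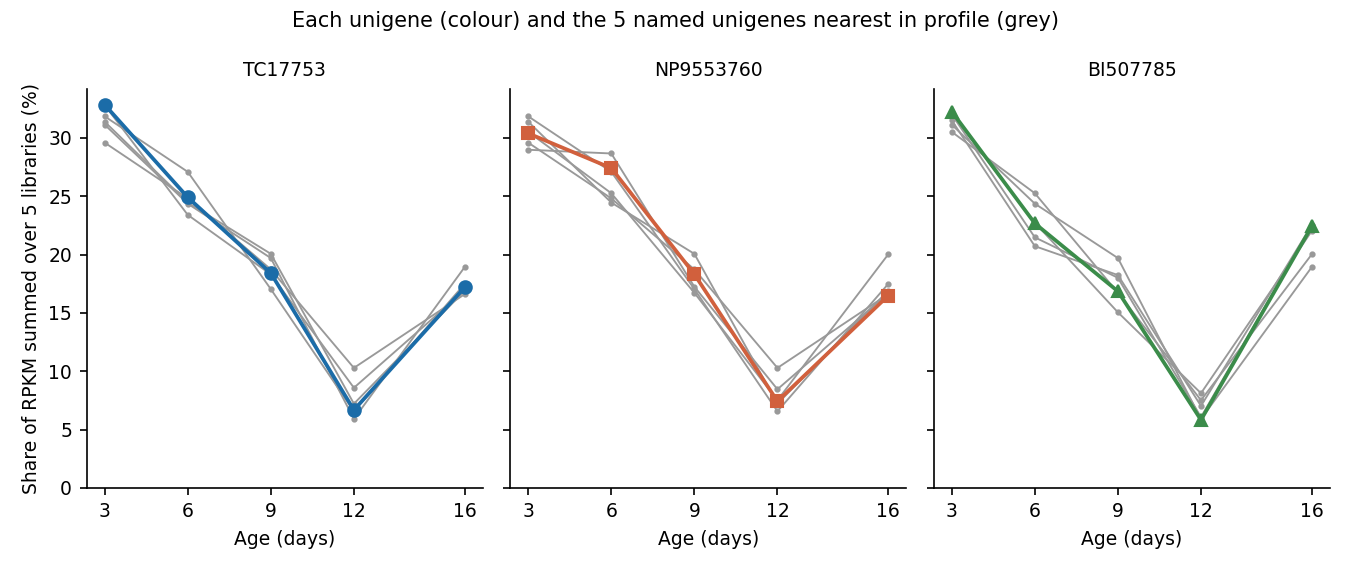
Share of each library in the RPKM summed over 5 libraries, in percent, against age in days, for TC17753, NP9553760 and BI507785 (colour) and for the 5 annotated and named unigenes nearest to each (grey). Colour and grey lines have their lowest point on day 12, at 6.67% for TC17753.

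Other parts of the Ras pathway, and GTPases and regulators of the wider Ras superfamily, were looked up in the annotation by name. That means among unigenes read on day 3 and below 10 RPKM there, and few of them were called. Unigenes chosen for a low day 3 value stand higher against day 3 for that reason, whereas leaving out those without a day 3 read works the other way. The median log2 ratio of day 12 to day 3 was -0.24 over the 3799 named ones with at least 10 reads, against -0.65 over all. Annotated regulators of Ras and Rap were 3. BI507520, matched to Ras GTPase-activating protein 1, a GAP of Ras, had 1, 2, 1, 2 and 6 reads by age. NP9546084, matched to a stimulator of GDP release from Rap1, had 18, 10, 4, 5 and 8, and BI506933, with a Rap and Ran GAP domain, had 1 read in all. None of these regulators was called in the comparisons with day 3 or day 12, and at this depth little could be detected in them.

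The gene ontology term for Ras GTPase activator activity was carried by 2 annotated unigenes, neither of them among TC17753, NP9553760 and BI507785. They are NP9553708, matched to Rab-43, a GTPase of membrane traffic, with 8.92, 7.98, 13.8, 10.1 and 12.5 RPKM, and TC15407, matched to small G protein signaling modulator 3, with 7.22, 10.6, 9.67, 7.16 and 8.52. The first had its lowest RPKM on day 6, and the second had nearly the same RPKM on days 3 and 12, where TC17753, NP9553760 and BI507785 differed at least 4.10 times.

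Of 14 GTPases of the Ras superfamily, 11 of them with at least 10 reads, 0 were called on day 12 against day 3 in either direction, and their median log2 ratio was -0.86. All of them were Rab proteins except Rho1, and Ras itself was not in this list, so its level is not shown here. Of 8 unigenes listed as receptor tyrosine kinases and adaptors, 7 with at least 10 reads, 0 were called, with a median of -0.74. That list also holds TC16206, matched to a tyrosine phosphatase. Of 11 regulators of Rab and Arf, 6 with at least 10 reads, 0 were called, with a median of -0.20, or 0.39 with TMM. The GTPases most read were Rab-3 (15, 23, 23, 25 and 21 reads), a GTPase of synaptic vesicles, and Rab-9A (18, 17, 13, 22 and 14). The best read member of the receptor list was TC15568, matched to a vascular endothelial growth factor receptor, with 22, 21, 24, 11 and 32 reads.

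Of 16 members of the MAP kinase cascade, 10 with at least 10 reads, 1 was called lower on day 12 against day 3, with a median log2 ratio of -0.54, or 0.05 with TMM. It was NP9553628, matched to a MAP4 kinase, with 47, 36, 17, 8 and 44 reads, at -2.22 (-3.51 to -1.12) on day 12 against day 3 and 2.03 (0.92 to 3.32) on day 16 against day 12, where it was called higher. Of the annotated and named unigenes, from which these lists come, 56 of 5737 (0.976%) were called lower on day 12 against day 3.

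The TOR pathway list of the study, which was chosen on these libraries and is no independent evidence of a direction, holds TSC2, the GAP of the GTPase Rheb. Of its 10 unigenes 9 were called lower on day 12 against day 3, beside 12.5% of all unigenes. Their median log2 ratio was -1.28, or -0.69 with TMM. On day 16 against day 12, 2 were called higher and 1 lower, beside 2.33% and 0.748% of all unigenes. TC14039, 1 of the 2 unigenes of TSC2, had 219, 141, 117, 55 and 167 reads and log2 ratios of -1.66 (-2.11 to -1.22) on day 12 against day 3 and 1.17 (0.72 to 1.64) on day 16 against day 12, both called. NP9546367, the other, had 225, 180, 100, 87 and 141 reads and -1.03 (-1.41 to -0.67), called lower. TC15907, AKT, had the lowest ratio of the list, -2.14 (-2.46 to -1.83), beside -2.30, -2.03 and -2.47 in TC17753, NP9553760 and BI507785.

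In units of 1000000 the libraries held 1.21 to 1.82 unique reads, on 17065 to 18378 unigenes. Markers of the gland and of other tissues moved with age as well. The 5 unigenes taken as royal jelly markers summed to 2048, 15047 and 5689 of every 1000000 unique reads at ages 3, 12 and 16. Most of their reads were those of TC13222 alone, 3067 of 3477 on day 3, 18677 of 20225 on day 12 and 9119 of 10330 on day 16. The course of the sum is thus mainly that of TC13222. On day 12 against day 3, 2 of the 5 were called higher, beside 1.8% of all unigenes. Of the unigenes taken as muscle markers 7 of 7 were called higher, with sums of 903, 6673 and 5665. The study's main text names TC17816, TC22893 and TC12751 of the royal jelly markers as royal jelly protein genes. Of the muscle markers it names TC24102 and NP1608872 as troponin. It gives no such name for the others, TC13222 among them. Among annotated unigenes, 18 of 44 muscle names were called higher on day 12 against day 3, and 5 of the 39 with at least 10 reads had a log2 ratio below 0. Of all 5737 annotated and named unigenes 110 were called higher there and 56 lower. The sum of 96 neuron names ran, on the same scale, from 336 on day 12 to 489 on day 3, with 3 called lower and 1 higher, that of 8 fat body names from 13.4 to 21.2, and that of 10 haemocyte names from 104 on day 12 to 159 on day 16. The 3 unigenes together ran from 37.9 on day 12 to 175 on day 3. The part of other tissues in the levels of TC17753, NP9553760 and BI507785 was not tested, and in pooled glands fewer cells of a type and less RNA per cell cannot be told apart.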

How the data were processed

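RNA of HGs pooled from 30 bees was sequenced at 5 ages, with 1 library per age. As the study describes, the authors removed low-quality reads and mapped the rest to the Honey Bee Gene Index of DFCI, a set of unigenes. The aligner was SOAP2 with up to 2 mismatches, and its version was not given in the sources used here. For each library the authors deposited a count of the reads unique to each unigene, its RPKM, which rests on that count, the unigene's length and the total over the library, and the coverage, the fraction of its bases that these reads cover. The deposited annotation gives names that are mostly best matches in other species. Reads shared by similar unigenes are not in these counts, and no genome coordinates are given, since reads were matched to unigenes.

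Unigenes with a read in either of 2 libraries were tested with the two-sided Audic and Claverie test, adjusted by Benjamini and Hochberg over all of them, and called where the FDR was 0.001 or less and the absolute log2 ratio 1 or more. These limits are those of the study, and the test was written in Python 3.11.15 with SciPy 1.17.1 and tested on simulated data. Intervals are 95% exact, Poisson for 1 count and Clopper-Pearson for the share of 2 counts, put on the ratio scale. A count of 0 was replaced by 3 reads in ratios. Medians of lists were taken over log2 (RPKM + 0.1) of members with at least 10 reads. Random coverage is 1 minus the exponential of reads times 49 bases over length.

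Lists were made by name from the annotation, and false name matches were removed after the names were seen. The result of 1 list is not reported here. The text names the 3 unigenes, members of each list by reads and by call, the 5 annotated and named unigenes nearest in profile, and members of the study's TOR list. The unigenes and the lists were chosen with earlier results of these data known. Alternatives were scaling by TMM (edgeR 4.0.16, R 4.3.3), without the 16 unigenes that are among the 10 with the highest RPKM of any library, and, added after the data were seen, by the total of clean reads. Further ones were Fisher's exact test, an assumed coefficient of variation of 0.2 (edgeR), at least 10 reads, an FDR of 0.05 and a pseudocount of 1.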

Additional observations from a re-analysis of the deposited data

How the results depend on the processing

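No paired analysis was possible because each age has 1 library. The 6 comparisons without day 12 held 0 of the 7 calls, which the choice of the unigenes may have fixed for those with day 3. The course from day 3 down to day 12 and up to day 16 stayed in TC17753, NP9553760 and BI507785 under all 4 scalings. TMM raised every log2 ratio of day 12 to day 3 by 0.60, scaling without the top unigenes by 0.43, and clean reads lowered it by 0.32. Of the 7 calls, 3 were lost with TMM and the same 3 without the top unigenes. These were BI507785 on day 12 against day 3 (-1.87 and -2.04) and TC17753 on day 12 against day 9 (-1.26 and -1.36) and day 16 against day 12 (1.23 and 1.23). With clean reads TC17753 lost its call on day 12 against day 9 (-1.30), while day 9 against day 3 was called in TC17753 (-1.32) and NP9553760 (-1.21) and day 16 against day 12 in NP9553760 (1.55).

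With an assumed coefficient of variation of 0.2, 6 of the 7 calls were lost at unchanged log2 ratios, NP9553760 (-2.03) and BI507785 (-2.47) on day 12 against day 3, TC17753 (-1.90) and NP9553760 (-1.89) against day 6, and TC17753 against day 9 (-1.46) and on day 16 against day 12 (1.36). TC17753 on day 12 against day 3 kept its call. An FDR of 0.05 added 4, BI507785 against day 6 (-1.96), NP9553760 against day 9 (-1.30), and NP9553760 (1.15) and BI507785 (1.94) on day 16 against day 12. Fisher's exact test, the minimum of 10 reads and the pseudocount of 1 changed no call of the 3.

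Over all unigenes, 2411 were called lower and 347 higher on day 12 against day 3. These became 825 and 702 with TMM, 1186 and 544 without the top unigenes, 3761 and 276 with clean reads, and 351 and 157 with the assumed variation. With TMM the counts called lower were 349 in place of 1210 on day 12 against day 6, and 119 in place of 267 against day 9. The median ratios of day 12 to day 3 with TMM were 0.05 for the MAP kinase list, 0.39 for Rab and Arf, -0.28 for the GTPases and -0.18 for the receptors, and with no minimum of reads they were -1.28, -1.09, -1.28 and -1.13, in place of -0.54, -0.20, -0.86 and -0.74. Every annotated unigene had a day 3 read, which by itself lowers such medians where reads are few. Of the 5 nearest named profiles, 4, 4 and 5 remained with TMM for TC17753, NP9553760 and BI507785. With 5 reads on day 12, BI507785 bears no firm ratio.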
